A study of Mus musculus with 14 samples.

Results

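The SoxE genes Sox8, Sox9 and Sox10 encode the 3 closely related transcription factors of the group to which SOX10 itself belongs, and the regions listed around these genes in a SOX10 chromatin immunoprecipitation (ChIP) from mouse mammary tumors are described here. Members were taken by position, as the regions overlapping 1 of 3 windows in the mouse build mm9. The choice of these windows was made with earlier results of these data known. The windows were chr11:111600000-113300000 for Sox9 and the gene-poor desert around it, chr15:78850000-79150000 for Sox10 and chr17:25550000-25850000 for Sox8. Of 7929 regions in the deposited list, 42 (0.53%) were members, with 32 in the Sox9 window, 9 in the Sox10 window and 1 in the Sox8 window.

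The study profiled mouse mammary cells by ChIPmentation, in which a transposase inserts the sequencing adapters while the chromatin is on the beads, and its 14 samples fall into 8 groups. The regions come from 3 of these samples, all from tumors that PY230 cells, a mouse mammary tumor line, formed in syngeneic adult mice of strain C57BL6J. The PY230 SOX10 ChIP group holds 2 samples. Their cells carried an AVI-tagged SOX10 and the biotin ligase BirA, which marks the tag with biotin, and their chromatin was pulled down on streptavidin beads. The PY230 SOX10 control group holds 1 sample of control cells taken through the same beads, and the labels give no further genotype for it. Streptavidin captures the tagged fusion, so the list describes the tagged SOX10 and gives no separate reading of any untagged SOX10. How the fusion was introduced is not given in the labels. Sequence that it shares with the native Sox10 gene would align to that gene, and the share of such reads at Sox10 was not tested. Both ChIP samples share 1 list against the control, so no value below has a replicate spread and no difference between windows was tested. The libraries' totals are not in the list, and their depth is unknown. The list holds no expression values, so the labelled tumor tissue could not be checked against marker genes.

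SoxE proteins bind DNA through an HMG box, which bends the helix at short sites built on a CAAAG-like core, and they can bind such sites as dimers. Sox9 is best known for cartilage formation and testis determination and marks progenitor cells in many epithelia, the mammary gland included. It is controlled by enhancers spread through the long gene deserts on both sides of it. Sox10 directs the development of neural crest cells, among them glia and melanocytes, and is expressed in mammary progenitor cells. Sox8 overlaps with both in function and has milder loss-of-function effects. Enhancers of SoxE genes are known in other tissues to be bound by SoxE proteins.

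Gene order was taken from the RefSeq table of build GRCm38.p6, which is another build than that of the list, so the table gave names only. In that order Sox9 (gene 20682) stands between the non-coding RNA genes BC006965 and Gm11681. Its nearest coding neighbours are the predicted gene Gm11677 and then the potassium channel gene Kcnj2 on one side, and the zinc transporter gene Slc39a11 on the other. Sox10 (gene 20665) follows directly on Polr2f, which encodes an RNA polymerase subunit, and the next coding gene after it is Pick1, which encodes a PDZ-domain scaffold protein. Sox8 (gene 20681) lies between Sstr5, a somatostatin receptor gene, and Lmf1, a lipase maturation factor gene, with the non-coding Cerox1 directly after it. The mm9 positions of these genes were not used here. Regions are therefore described by their distances from each other and from the centre of their window, toward lower or higher coordinates, and not as upstream or downstream of a gene start.

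The Sox9 window was dense in SOX10 regions. Its 32 regions corresponded to 18.8 per Mb (exact Poisson interval at 95%, 12.9 to 26.6, counting error only), against 4.42 per Mb on the rest of chromosome 11, a ratio of 4.26 (2.91 to 6.01). The window took 1.4% of the length of chromosome 11 and 5.69% of its 562 regions, where 7.85 regions would match its length. With runs of regions less than 10 kb apart counted once the ratio was 2.55, and in the central 50% of the window it was 2.57. The Sox10 window held 30.0 regions per Mb (13.7 to 56.9), against 5.08 on the rest of chromosome 15, a ratio of 5.91 (2.70 to 11.2). In the central 50% of the Sox10 window this ratio was 11.8, and with the window widened by 50% it was 3.93. Both held the same 9 regions, so only the length changed. The Sox8 window held 3.33 per Mb (0.0844 to 18.6), against 2.20 on the rest of chromosome 17, and the interval of its ratio of 1.51 ran from 0.0383 to 8.43. That ratio was 3.03 in the central 50% of the window and 1.01 with the window widened by 50%, with the same single region in both. It was 0 when only regions at or above the list median were kept. Regions lie in groups in this list, so these intervals are too narrow, and they were not used as a test.

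Against windows of the same width laid end to end, the Sox9 window was among the fullest of the genome. Of 1475 windows of 1700 kb on all chromosomes, 10 others held as many regions or more, and the median window held 3. On chromosome 11 only 2 of the other windows did, and both lay on its higher-coordinate side, with 55 and 75 regions. For Sox10, 72 other windows of 8487 with a width of 300 kb held 9 regions or more, and 63.2% of such windows were empty. Of those 72, 10 were on chromosome 15. A single region, as in the Sox8 window, or more was found in 36.6% of 8497 windows of 300 kb.

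**Figure D1:**
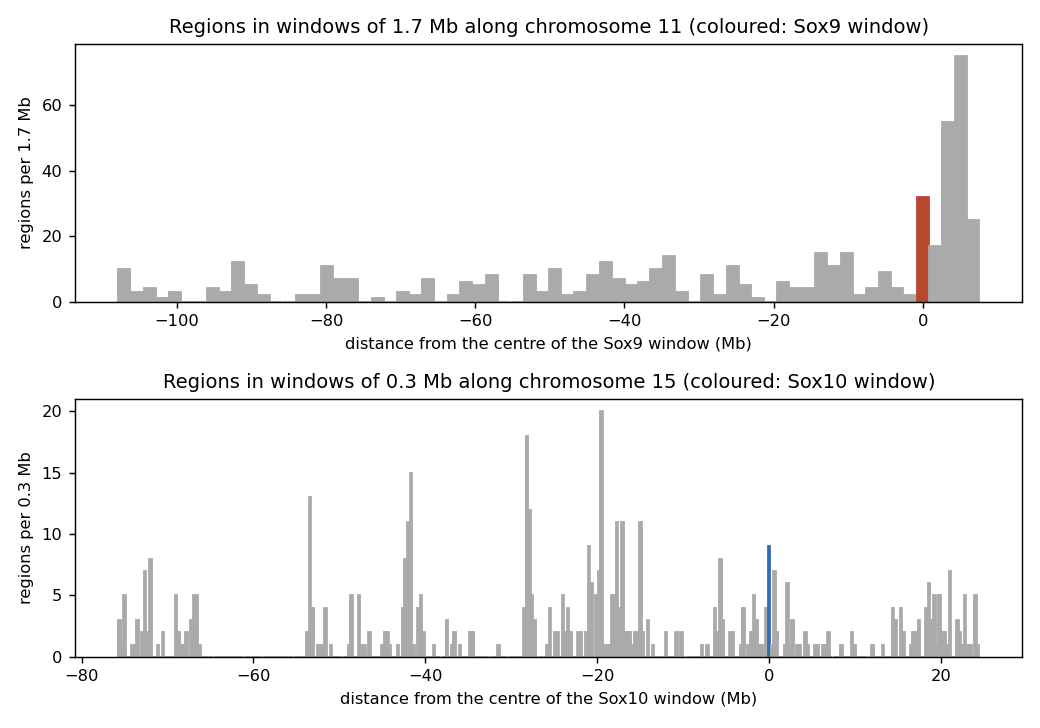
Regions in adjoining windows of 1.7 Mb along chromosome 11 (upper) and of 0.3 Mb along chromosome 15 (lower), by distance from the centre of the Sox9 or Sox10 window in Mb; each bar is the count in 1 window, and the coloured bar is the SoxE window. The Sox9 window, with 32 regions, opens a dense stretch at the end of its chromosome, while the Sox10 window, with 9, is a narrow peak among other peaks of up to 20.

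The density around Sox9 was shared with the end of chromosome 11. Beyond the window the chromosome held 211 regions, or 25.3 per Mb (exact Poisson interval 22.0 to 28.9), and before it 319 regions, or 2.86 per Mb (2.55 to 3.19). Relative to the higher-coordinate side alone the Sox9 window had 0.745 times the density, and relative to the lower-coordinate side 6.59 times. The window of the same width just below held 2 regions and the one just above held 17. The Sox9 window, with 32, was thus fuller than both of its direct neighbours, and less dense than the stretch beyond it taken as a whole. In that stretch successive windows of the same width held 17, 55, 75 and 25 regions, so it was not denser throughout.

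Signal was compared in the same way. The signal of a region is the authors' own value, whose unit is not stated. Multiplied by width it was a whole multiple of 0.0479 within a tolerance of 0.05 of a step in 99.9% of the 7282 regions under 1500 bp with a signal above 0, as a coverage averaged over the bases of the region would be. Dividing by that step and by 54, the length that recurs in the multiples, gives read equivalents, a reading of the values that may be net of the control. They came to a whole number, within 0.01, in 10 of the 42 members and in 38.8% of the list, so they are not counts of whole reads.

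The Sox9 regions had a median signal of 0.0462 (quartiles 0.0319 and 0.0564, range 0.0157 to 0.0735), against 0.0340 on the rest of chromosome 11 (quartiles 0.0227 and 0.0463), a ratio of 1.36. The regions beyond the window had the same median, 0.0462 (quartiles 0.0360 and 0.0561), and those before it had 0.0265 (0.0183 and 0.0357). The Sox10 regions had a median of 0.0274 (quartiles 0.0260 and 0.0399, range 0.00668 to 0.0696), equal to the 0.0274 on the rest of chromosome 15. The Sox8 region, at 0.0192, was below the median of 0.0254 on the rest of chromosome 17. The whole list had a median of 0.0280 (quartiles 0.0200 and 0.0374), so the median of the Sox9 regions, like that of the regions beyond them, lay above the upper quartile of the list. The ranges of the Sox9 and Sox10 signals overlapped, and the Sox8 value lay inside both.

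**Figure D2:**
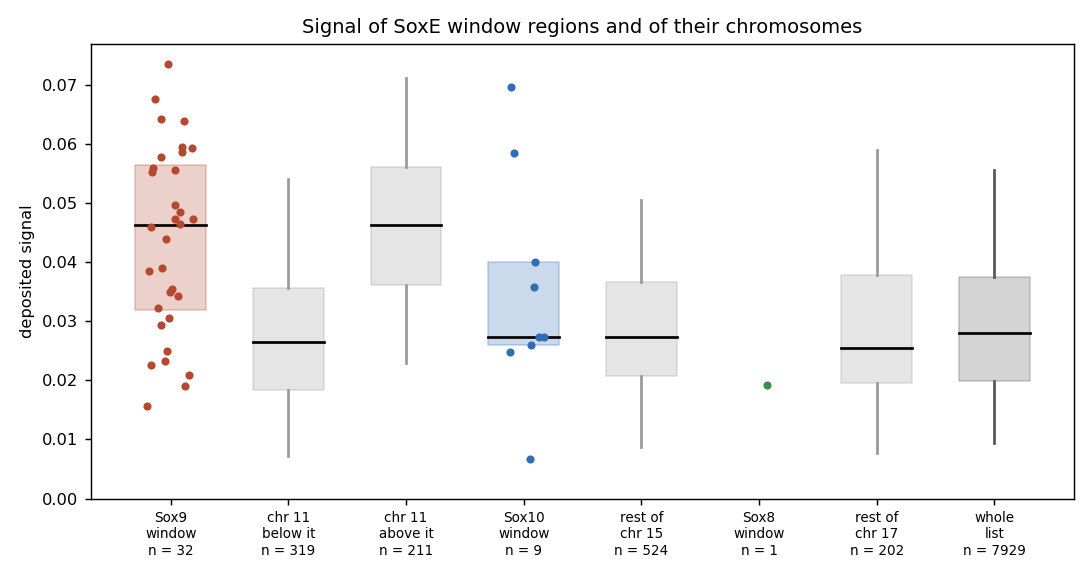
Deposited signal of each region in the Sox9, Sox10 and Sox8 windows (points, with the box from the lower to the upper quartile and the median as a line where there is more than 1) beside chromosome 11 below and above the Sox9 window, the rest of chromosomes 15 and 17 and the whole list (grey boxes, with whiskers from the 5th to the 95th percentile). The Sox9 box, with a median of 0.0462, sits at the level of the regions above it on chromosome 11 and over those below it, at 0.0265.

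Strong, wide and grouped regions were counted against their shares in the list. In the Sox9 window 13 of 32 regions (40.6%) were among the 10% of the list with the highest signal, a signal of at least 0.0481, where the background was 10% in the list, 22.3% on the rest of chromosome 11 and 45.5% beyond the window. A signal at or above the list median was found in 26 of 32 (81.2%), against 50% in the list, 61.3% on the rest of the chromosome and 87.7% beyond the window. Both shares were near those of the stretch beyond the window, and they are not a result about Sox9 itself. A width of 1500 bp or more was found in 9 of 32 (28.1%), against 7.34% in the list, 5.85% on the rest of the chromosome and 13.3% beyond the window. In the window of the same width just above it was 5 of 17 (29.4%), so wide regions were as frequent there. Of the Sox10 regions, 2 of 9 (22.2%) were among the strongest 10%, against 7.25% on the rest of chromosome 15, and 4 of 9 (44.4%) were at or above the list median, against 47.5% there. None of the 9 was wide, against 13% on the rest of that chromosome. No member was listed at a signal of 0, which 0.82% of the list was.

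The Sox9 regions were spread over 1250 kb with long empty stretches among them. Of the 32, 2 lay on the lower-coordinate side of the window's centre and 30 on the other side. The first 306 kb of the window and the last 146 kb held none. The nearest region outside on the lower side ended 779 kb before the window, at 110820738, with a signal of 0.0206. On the upper side the next one began 0.941 kb beyond the edge, at 113300942, with a signal of 0.0604, after a gap of 147 kb from the last Sox9 region.

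Toward lower coordinates the Sox9 regions were few and far apart. The first, chr11:111905619-111906180, had a signal of 0.0460 and 10.0 read equivalents, and followed a gap of 1080 kb from the region before it. The second, chr11:111956472-111957351, had a signal of 0.0323 and was the last one before the centre, 493 kb from it. An empty stretch of 525 kb, the longest among the members, then led to the region just past the centre, chr11:112482619-112483160, with a signal of 0.0191 and 4.0 read equivalents. These 3 regions had no neighbour within 50 kb.

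A series of 6 regions over 80.9 kb followed, from 112569291 to 112650185, and it held the strongest and the widest members. Its signals ran from 0.0350 to 0.0735 with a median of 0.0569, and 5 of the 6 were among the strongest 10% of the list. Its first region, chr11:112569291-112574631, was 5341 bp wide, the fifth widest of the whole list and the widest on chromosome 11. It had a signal of 0.0497 and 103 read equivalents, the most of any member. The strongest member of all lay in the same series at chr11:112628063-112629953, 1891 bp wide, with a signal of 0.0735 (2.62 times the list median) and 53.8 read equivalents. It ranked 132 in the list and 17 on chromosome 11.

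The series ended in a run of 3 regions within 9.27 kb, chr11:112640918-112650185, whose gaps were 785 and 2746 bp. The middle region of this run, 1766 bp wide, had the second highest signal of the Sox9 window, 0.0675, and ranked 171 in the list. The region before it was 2882 bp wide, the 43rd widest of the list, and had a signal of only 0.0350. Regions covered 61.9% of the run's length, the highest share of any run of 2 or more in the 3 windows. With gaps this short, the list does not show whether the 3 are separate sites.

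Between 112650185 and 113043618 the Sox9 window held 6 regions, of which 4 lay in pairs. A lone region at chr11:112768013-112768474, 462 bp wide, had a signal of 0.0559 with empty stretches of 118 and 101 kb on its sides. The pair at chr11:112869789-112872617 had signals of 0.0440 and 0.0355. Farther on, a region of 3469 bp (chr11:112961662-112965130), the 19th widest of the list, had a signal of 0.0473 and 63.5 read equivalents. Its neighbour at chr11:112973996-112975508, with a signal of 0.0595, had the fifth highest signal in the window and ranked 288 in the list.

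The most crowded stretch lay toward the upper end, where 17 of the 32 regions fell within 110 kb (113043618 to 113154069). It consisted of runs of 3, 5 and 9 regions with gaps under 10 kb. The run of 3 (chr11:113043618-113054250) had a median signal of 0.0578 and the run of 5 (chr11:113069708-113094157) one of 0.0464. The run of 9 (chr11:113120682-113154069) covered 33.4 kb, with signals from 0.0210 to 0.0638 and a median of 0.0384. Of 6131 runs and single regions in the list, 5 held 9 regions or more. In bins of 100 kb, 2 successive bins here held 8 and 9 regions, the most of any bin in the window. Of 25522 bins of the genome, 0.0901% and 0.0549% held as many or more, with these bins included. How many of those lie on chromosome 11 beyond the window was not counted.

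Regions of high and low signal lay next to each other in this stretch. Whether their order differed from a random one was not tested. In the run of 5, a region at chr11:113075590-113076493 had a signal of 0.0642, the third highest of the Sox9 members. The next region along, chr11:113082664-113083098, had the lowest signal of the window, 0.0157, with 2.65 read equivalents. In the run of 9, the regions at chr11:113123219-113123697 and chr11:113123780-113125128 were 82 bp apart and had signals of 0.0210 and 0.0556. Another region of that run, chr11:113132809-113133723, reached 0.0638, the fourth highest of the window. The last Sox9 region, chr11:113153304-113154069, had a signal of 0.0226 and 6.69 read equivalents. Strong and weak regions thus stood side by side in these runs.

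**Figure D3:**
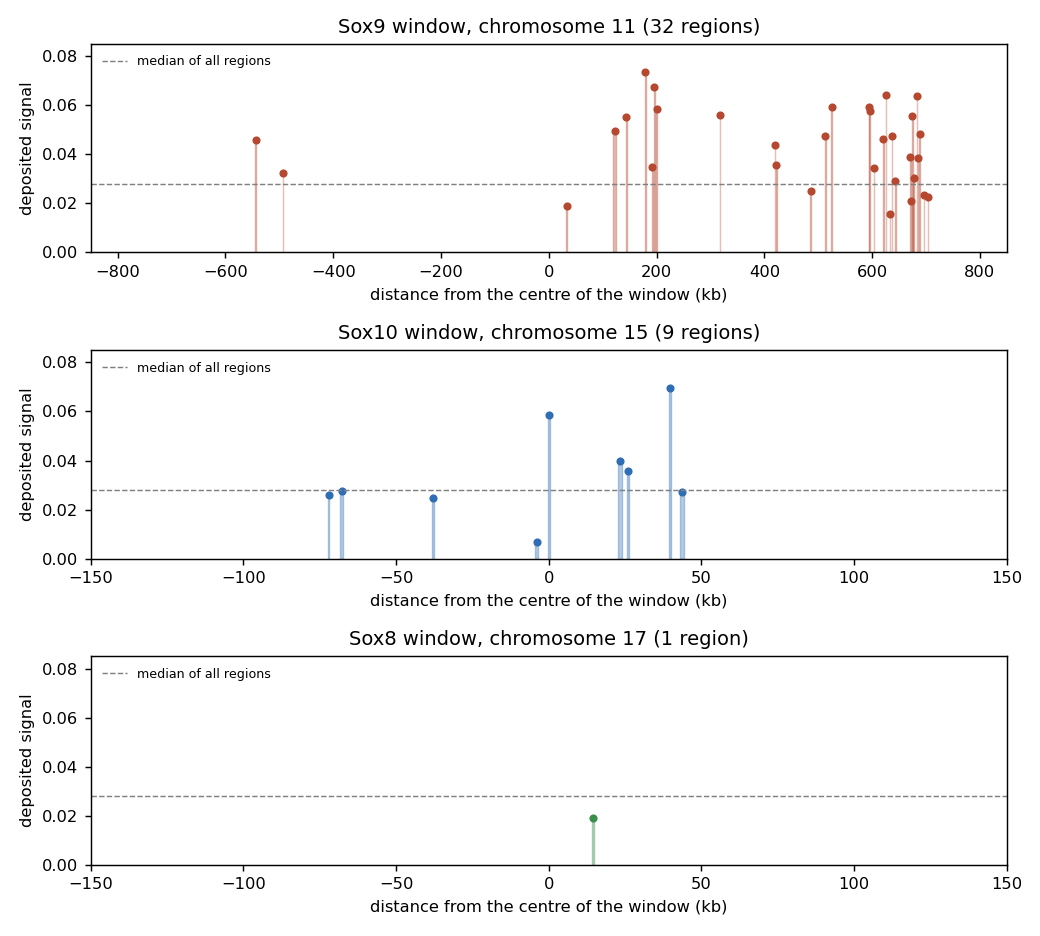
Deposited signal of the 42 regions by distance from the centre of their window in kb, for Sox9 (upper), Sox10 (middle) and Sox8 (lower); points mark region midpoints, bars are as wide as the regions, the dashed line is the list median of 0.0280, and the Sox9 panel covers a wider span than the others. The Sox9 regions gather in a series with the highest value, 0.0735, and in a crowded stretch of 17 regions toward the upper edge, while 1 region stands alone at Sox8.

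Spearman's rho between width and signal was 0.490 over the 32 Sox9 regions, -0.217 over the 9 Sox10 regions, 0.152 over the 211 regions beyond the Sox9 window and 0.160 over the whole list. These values are a description, since all points come from 1 list and share its calling, and their differences were not tested. The 9 Sox9 regions of 1500 bp or more had a median signal of 0.0497 (range 0.0350 to 0.0735), and the 23 narrower ones had 0.0384 (0.0157 to 0.0642). These 9 covered 54.6% of the 41.2 kb under Sox9 regions and held 59.8% of their 754 read equivalents. Per Mb, read equivalents came to 443 in the Sox9 window, where regions covered 2.43% of the sequence. Beyond the window they came to 431, with 2.37% covered, and before it to 24.9, with 0.192% covered.

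**Figure D4:**
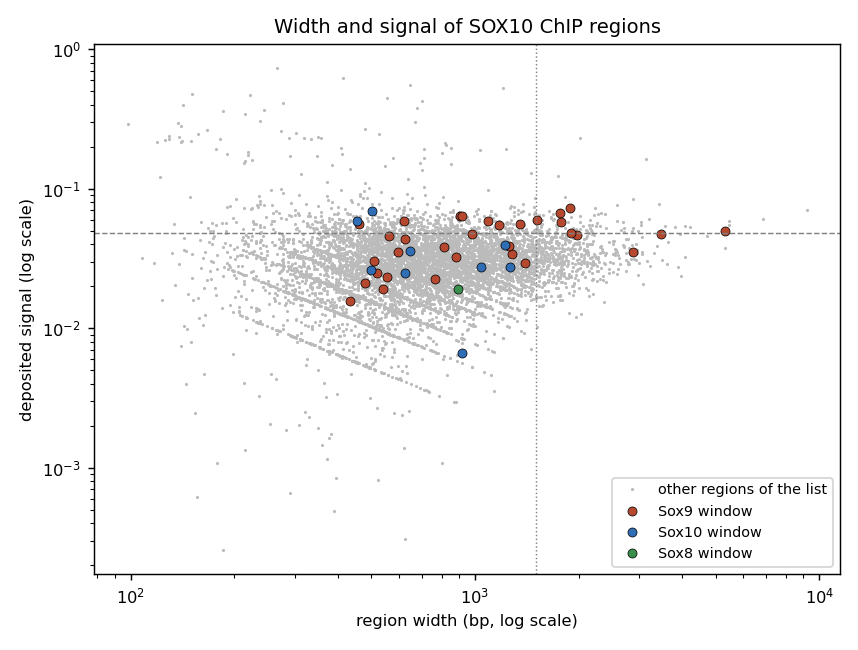
Width in bp against deposited signal, both on log scales, for regions of the list with a signal above 0 (grey) and for the members (coloured by window); the dotted line marks 1500 bp and the dashed line the signal of 0.0481 that bounds the strongest 10%. Sox9 regions reach 5341 bp and spread over strong and weak signals, and no Sox10 or Sox8 region is past the dotted line.

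The Sox10 regions were narrower than the Sox9 regions, with a median width of 649 bp against 948 bp. They were fewer, in a window of 0.3 Mb against 1.7 Mb. The median gap to the nearest region was alike, at 3.3 kb for Sox10 and 3.73 kb for Sox9. All 9 lay within 117 kb, inside the central 50% of the window, with 77.7 kb before them and 106 kb after them empty. The nearest regions outside were 84.4 kb below the window, with a signal of 0.0238, and 95.1 kb above it, with 0.0320. Their widths ran from 455 to 1263 bp. Of the 9, 8 (88.9%) formed 4 pairs with gaps of 1723 to 3519 bp. A neighbour within 10 kb was found for 44.7% of the rest of chromosome 15 and 38.1% of the list, and for 24 of 32 Sox9 regions (75%), against 41.7% on the rest of chromosome 11 and 61.1% beyond that window.

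From low to high coordinates, the first Sox10 pair lay at chr15:78927674-78928172 and chr15:78931692-78932730, with signals of 0.0260 and 0.0274. The single region that followed, chr15:78961732-78962356, had 0.0248. These 3 lay just under the list median. The second pair lay at the centre of the window and held the weakest member of all, chr15:78995563-78996479, with a signal of 0.00668 and 2.37 read equivalents. A signal lower than this was listed for 2.65% of regions. Its partner 3.30 kb away, chr15:78999784-79000238, had 0.0585, and ranked 5 among the regions of chromosome 15 although it was the narrowest Sox10 region.

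The third Sox10 pair, chr15:79022786-79024010 and chr15:79025734-79026382, had signals of 0.0399 and 0.0358. The last pair held the strongest Sox10 region, chr15:79039504-79040005, with a signal of 0.0696 (2.48 times the list median), which ranked 2 on chromosome 15 and 157 in the list. With a width of 502 bp it amounted to 13.5 read equivalents. Its partner, chr15:79043022-79044284, had 0.0273. Of the 4 pairs, the second and the fourth thus each held a region among the strongest 10% of the list beside one under the list median, and the first and the third joined regions of like signal. The Sox10 signals spanned 10.4-fold from lowest to highest, and the Sox9 signals 4.67-fold. All 9 together held 89.5 read equivalents, and 4 of the 9 were under 10, as were 9 of 32 Sox9 regions and 65.0% of the list.

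The only Sox8 region, chr17:25714069-25714961, was 893 bp wide and lay 14.5 kb from the centre of its window. Its signal of 0.0192 (0.686 times the list median) amounted to 6.65 read equivalents, and 23.1% of the list was lower. It stood 347 kb from the region before it and 1040 kb from the one after it. Of 98 windows of 300 kb on chromosome 17 with any region, 80, the Sox8 window included, had a median signal as high or higher. The promoter table from RefSeq (GRCm38.p6) held a sequence for Sox8 and was without one for Sox9 and Sox10. It is shown as the only SoxE promoter in that table. Its 300 bases lie at chr17:25570637-25570936 in that build, on the minus strand, from 250 bases before the start to 50 after it. Capitals mark CTTTG, the reverse complement of the core CAAAG.

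Sox8 promoter: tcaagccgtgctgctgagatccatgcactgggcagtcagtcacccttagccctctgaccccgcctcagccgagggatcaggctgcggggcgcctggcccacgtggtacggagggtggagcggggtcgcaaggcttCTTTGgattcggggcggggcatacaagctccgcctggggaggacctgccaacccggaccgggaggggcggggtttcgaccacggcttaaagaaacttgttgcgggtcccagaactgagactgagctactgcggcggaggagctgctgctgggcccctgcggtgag

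The core CAAAG was present once in the Sox8 promoter, counting both strands, and 53.9% of 32851 promoters in the table held it. The longer forms ACAAAG, which contains that core, and ACAATG were absent from it on both strands, and 18.7% and 12.6% of promoters held them. Whether the Sox8 region lies at this promoter could not be read, since the list is in mm9. The match is a description of these letters and not of binding.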

How the data were processed

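Chromatin from PY230 tumors was measured by ChIPmentation, and 1 list for 2 SOX10 ChIP samples against 1 control sample was analysed (neither the H3K27ac samples nor the input of the tumors was used here). The submitters' processing notes name the build mm9 and the tools MACS2 2.1.1, SAMtools 1.3.1, Bowtie 0.12.8 and FastQC, with no roles or parameters. The deposited signal per region has the form of a scaled mean coverage; any formula, calling threshold or handling of duplicates is not given in the sources used here. A threshold would leave out weaker regions, so the absence of a listed region is no measure of absent binding.

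Windows, members and gene lists were chosen with earlier results of these data known. Coordinates were written with 1-based starts. The largest region end stood for the chromosome length. Counts have exact Poisson intervals (95%), regions with gaps under 10 kb form a run, and windows of equal width were laid on a grid from 3 Mb onward. Regions named in the text are all of a window with 10 or fewer. For Sox9 they are the 5 strongest, the 3 widest, the weakest, the first, the last, those next to the centre and every run of 3 or more; further ones were chosen after their values were seen. No test was made, since the list has no replicates and its regions are not independent. Scripts (Python 3.11.15, pandas 2.3.3, SciPy 1.17.1) were tested on simulated data. Motifs were searched in RefSeq promoters of GRCm38.p6, and no coordinates were converted. Other Sox genes in the planned list were not described, as that needs gene positions in mm9.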

Additional observations from a re-analysis of the deposited data

How the results depend on the processing

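No paired analysis was possible because both ChIP samples share 1 list that carries no sample numbers, and no library could be left out. Of 46 values recomputed under other settings, 37 stayed within the 95% interval of the reported value (or equalled it, for the Sox8 signal). For Sox8, with 1 region, the interval ran from 0.0383 to 8.43 for the density ratio. For its percent of regions with a neighbour it ran from 0 to 97.5. Staying within such wide intervals says little, so the Sox8 part of this count is no measure of stability. The Sox10 part is a weak one. Its central 50% and its widened window hold the same 9 regions, so its signal ratio of 0.999 could not change there. Its share with a neighbour was 88.9% at gaps under 5 and under 20 kb, given the spacing of its pairs. The Sox10 intervals were wide too, at 2.70 to 11.2 for the density ratio and 51.8 to 99.7 for that share. The Sox9 density ratio of 4.26 became 2.55 with runs counted once and 2.57 in the central 50% of the window, and the Sox10 ratio of 5.91 became 11.8 in the central 50%, where all 9 regions lie. The Sox8 ratio became 0 when only regions at or above the list median were kept, since its only region is not among them. The share of regions with a close neighbour became 56.2% for Sox9 with a gap under 5 kb, and 50% for Sox10 when only regions at or above the list median were kept. The Sox8 signal ratio of 0.758 became 0.752 without regions at 0, 0.748 under 1500 bp and 0.549 with means. Comparison with 1 side of the chromosome was chosen after seeing the data. It gave Sox9 density ratios of 0.745 (above) and 6.59 (below), Sox9 signal ratios of 0.999 and 1.74, and Sox8 signal ratios of 0.771 and 0.627; for Sox9 density the direction turned. For Sox8, leaving out its strongest region, or keeping only regions at or above the list median for the share with a neighbour, left no region. Read equivalents were under 10 in 14 of 42 members and in 5150 of 7929 regions of the list (65.0%), which limits the ranking of single regions.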
